A study of Homo sapiens with 6 samples.

Results

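The metallothionein genes MT1E, MT1F, MT1G, MT1H, MT1M, MT1X and MT2A, the zinc sensor MTF1 and the zinc exporter SLC30A1 were examined in THP1 cells exposed to withaferin A. These 9 genes were chosen by name, with earlier results of these data known. They are 9 of the 26485 gene rows in the deposited table, and 7 of them had enough reads to be tested. THP1 is a human acute monocytic leukemia cell line, and withaferin A (WFA) is a thiol-reactive steroidal lactone from Withania somnifera. Cells were treated for 6 h with WFA or with its vehicle DMSO in 3 independent experiments, which gave 3 RNA-seq libraries per group. The sample labels state the WFA concentration as 1 mM and the study's methods state 1 μM. The study used these libraries to ask how the transcriptome answers a short WFA exposure that lowers c-MYB protein. THP1 is an established line grown in culture, so the values describe this line under this treatment.

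Metallothioneins are small cysteine-rich proteins that bind zinc and copper through thiolate clusters and buffer the cell's free metal. When free zinc rises, it loads the zinc fingers of MTF1, which then binds metal response elements (MREs) in metallothionein promoters and in the promoter of SLC30A1, whose product ZnT1 moves zinc out of the cell. Heat shock, oxidants and glucocorticoids are also known to induce metallothioneins. In human cells MT2A is commonly regarded as the most widely expressed isoform.

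The rows fall at 3 places in the genome (GRCh38.p14, RefSeq). The 7 metallothioneins belong to a cluster on chromosome 16, chr16:56565073-56684196, which spans 119.1 kb and holds 16 annotated metallothionein genes and pseudogenes. MTF1 lies at chr1:37809574-37859592 and SLC30A1 at chr1:211571568-211579161, both on the minus strand. Promoter sequence from RefSeq was matched for 5 of the 9 members, namely MT1H, MT1X, MT2A, MTF1 and SLC30A1. Sequences for MT1E, MT1F, MT1G and MT1M were not used here. The 250 bases before the start of 4 of these genes are shown, 5′ to 3′ on the gene's strand, because they let the MRE core be seen beside the expression of each gene. Capitals mark each match to the MRE cores TGCACNC or TGCGCNC on either strand.
MT2A: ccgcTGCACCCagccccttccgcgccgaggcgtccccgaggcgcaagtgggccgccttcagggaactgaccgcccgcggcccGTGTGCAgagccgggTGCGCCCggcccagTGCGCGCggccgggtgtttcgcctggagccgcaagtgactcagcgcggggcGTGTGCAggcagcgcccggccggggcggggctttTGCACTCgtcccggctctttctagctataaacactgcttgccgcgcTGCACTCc
MT1X: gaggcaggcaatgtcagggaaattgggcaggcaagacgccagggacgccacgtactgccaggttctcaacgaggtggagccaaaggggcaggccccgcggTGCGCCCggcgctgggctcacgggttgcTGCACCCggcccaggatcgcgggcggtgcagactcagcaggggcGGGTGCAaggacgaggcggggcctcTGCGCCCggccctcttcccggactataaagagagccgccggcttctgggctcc
MT1H: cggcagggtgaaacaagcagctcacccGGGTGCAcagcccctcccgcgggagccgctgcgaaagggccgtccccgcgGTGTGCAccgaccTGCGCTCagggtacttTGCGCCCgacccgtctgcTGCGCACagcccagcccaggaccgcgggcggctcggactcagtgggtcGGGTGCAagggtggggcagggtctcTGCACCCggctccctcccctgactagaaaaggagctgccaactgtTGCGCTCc
SLC30A1: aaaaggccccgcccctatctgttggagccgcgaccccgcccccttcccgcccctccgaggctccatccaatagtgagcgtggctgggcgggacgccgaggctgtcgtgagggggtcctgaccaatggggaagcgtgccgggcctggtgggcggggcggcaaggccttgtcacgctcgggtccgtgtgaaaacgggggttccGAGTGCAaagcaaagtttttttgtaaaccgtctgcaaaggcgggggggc
They come from chr16:56608334-56608583 for MT2A, chr16:56682220-56682469 for MT1X and chr16:56669564-56669813 for MT1H, all on the plus strand, and from chr1:211579162-211579411 on the minus strand for SLC30A1. MT2A held 7 such matches, MT1X held 4, MT1H held 8 and SLC30A1 held 1, whereas the 250 bases before MTF1 held 0. For SLC30A1 the RefSeq start, at base 211579161, did not match a transcript start in the GENCODE annotation, which begins the gene at 211578742. The bases before that other start were not searched, so the matches given for SLC30A1 may not describe its promoter. Among 35116 promoters of the same length, 24.8% held at least 1 match, 0.37% at least 4 and 0.0313% at least 7. In both MT1X and MT1H a match lay at bases -78 to -72 and another at -53 to -47 before the start. In MT2A the nearest counterparts lay at -88 to -82 and -54 to -48. The antioxidant response core TGACNNNGC was found once each in MT2A, MT1X and SLC30A1, on either strand and without overlap with an MRE match, and in 10.9% of all promoters. The heat shock core GAANNTTC was found in 0 of the 5 matched members and in 5.78% of all promoters. A match is a stretch of letters and not evidence of binding.

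Library totals ran from 11006035 to 13872810 counted reads. Levels are given as CPM, the count relative to library size after TMM scaling, and differences as log2 fold changes from edgeR's quasi-likelihood fit of 12854 genes, where a gene was called at a Benjamini-Hochberg adjusted p-value under 0.05. The nature of the cells was checked with lists of marker genes. The 12 monocytic markers summed to between 2755 and 3292 CPM with DMSO and between 2404 and 3175 CPM with WFA, with 1 of them at or under 3 reads in each library and LYZ as the largest part. Of the 11 tested, 6 were called lower and 1 higher, against 50.5% of all genes tested that were called in either direction, with a median log2 fold change of -0.34. The myeloid receptors TLR2, CD33, TLR4 and CD14 fell, with log2 fold changes of -1.69, -0.85, -0.68 and -1.22 (edgeR adjusted p = 4.40e-09, 6.99e-06, 0.000304 and 0.00165), and CD68, a lysosomal protein, rose by 0.37 (edgeR adjusted p = 0.00528). The part of these falls in the metallothionein values was not tested. Of 7 T cell markers, 5 were at or under 3 reads in each library, and CD4, which monocytes also express, made up most of the list's 133 to 171 CPM with DMSO and 158 to 183 CPM with WFA. The B cell and erythroid lists summed to at most 5.72 and 5.07 CPM in any library. The fibroblast and epithelial list rose from between 1.18 and 1.67 to between 9.504 and 13.5 CPM, mostly through COL1A1. Whether this list bears on the values below was not tested.

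The first comparison asked which metallothioneins changed with WFA. MT1E, MT1F, MT1G and MT1X fell, with log2 fold changes between -1.90 and -0.95. MT2A was lower in each of the 3 experiments but did not pass the test. MT1H and MT1M gave no measurable signal in either group. Of the 7 metallothionein rows, 5 passed the filter on low counts and 4 of these were called lower, against 24.7% of all genes tested. For 3 of them, MT1E, MT1G and MT1X, the fitted level was also under 50% of that with DMSO, against 5.20% of all genes. As the members were chosen with earlier results of these data known, such contrasts with all genes are a description.

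MT1X, an isoform that responds to metals in many cell types, fell most. It had 8.37, 7.58 and 7.42 CPM in DMSO replicates 1, 2 and 3 and 1.80, 2.90 and 1.49 CPM in the WFA replicates. The groups lay far apart, and the highest WFA library was below the lowest DMSO library. These levels rest on 89 to 119 reads with DMSO and 16 to 36 with WFA. The log2 fold change was -1.90 ± 0.23 (SE, edgeR adjusted p = 9.04e-06), a fall of 73.2%. The change was -2.22, -1.39 and -2.32 within experiments 1, 2 and 3.

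MT1G stood at 4.22, 4.66 and 4.50 CPM with DMSO and at 1.47, 2.17 and 1.95 CPM with WFA. The DMSO libraries were close together, and each WFA library was under all of them. Its log2 fold change was -1.25 ± 0.23 (SE, edgeR adjusted p = 0.000382). MT1G is a member of the cluster that is transcribed from the minus strand, next to MT1H.

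MT1E took the most reads of the family in each library. It had 16.95, 15.3 and 15.7 CPM with DMSO against 5.55, 8.86 and 6.79 CPM with WFA. Again no WFA library reached the DMSO range, and replicate 1 was the lowest with WFA. The log2 fold change was -1.17 ± 0.17 (SE, edgeR adjusted p = 3.64e-05), a fall of 55.7%.

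MT1F had the widest standard error of the 4 genes that fell. It measured 7.17, 8.45 and 10.2 CPM in the DMSO libraries and 2.53, 5.15 and 5.77 CPM in the WFA libraries. The groups did not overlap, but in both groups replicate 1 was the lowest. Its log2 fold change was -0.95 ± 0.25 (SE, edgeR adjusted p = 0.00516), and within the experiments it was -1.50, -0.71 and -0.83.

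MT2A was measured at 3.24, 4.98 and 3.67 CPM with DMSO and 1.96, 3.46 and 2.61 CPM with WFA. WFA replicate 2 lay above DMSO replicate 1, so the groups overlapped, although replicate 2 was the highest in both. The log2 fold change of -0.56 ± 0.26 (SE, edgeR adjusted p = 0.0883) did not pass the threshold. With the replicate number as a block it was -0.57 and passed (edgeR adjusted p = 0.0197). It also passed without WFA replicate 2, at -0.80 (edgeR adjusted p = 0.0361). Without DMSO replicate 2 or WFA replicate 1 it was smaller, at -0.37 in both cases (edgeR adjusted p = 0.315 and 0.298), and DESeq2 gave an adjusted p of 0.153. These levels rest on 44 to 63 reads per library with DMSO and 24 to 43 with WFA.

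**Figure D1:**
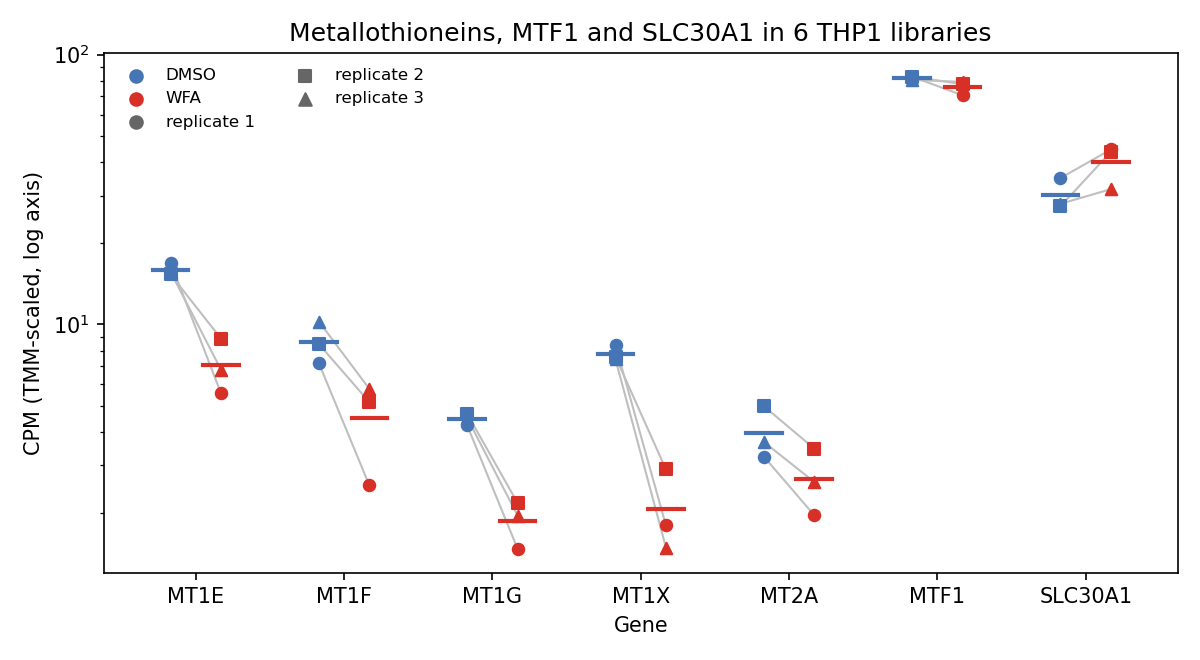
CPM on a log axis for each tested member, by library (points, shaped by replicate), with DMSO in blue, WFA in red, group means as bars and grey lines joining libraries of the same number. For MT1E, MT1F, MT1G and MT1X the 3 WFA points lie below the 3 DMSO points, whereas the groups overlap for MT2A and SLC30A1. CPM is not scaled for length, so heights are not to be compared between genes.

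MT1H and MT1M were listed at or near 0. MT1H had 0 reads in each of the 6 libraries, and MT1M had 1 read in WFA replicate 2 and 0 elsewhere. A count of 0 allows up to 3 reads, or between 0.211 and 0.279 CPM in these libraries. Neither gene can therefore be compared between the groups. The 8 MRE matches before MT1H thus stood beside no measurable transcript, while the 4 before MT1X stood beside a transcript that fell. The 7 before MT2A stood beside a transcript that did not pass the test. A relation between the number of matches and the change was not tested. A further 9 metallothionein rows of the table were also low, with 8 at or under 3 reads in each library. MT1L, a transcribed pseudogene, had 2 to 5 reads.

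For each of the 4 metallothioneins called lower the ranges of the groups did not overlap, with WFA below DMSO, as was so for 28.5% of all genes tested. The median log2 fold change over the 5 tested metallothioneins was -1.17, against 0.02 over all tested genes. By exact two-sided permutation over libraries p was 0.1 for each of the 4 genes called and p = 0.2 for MT2A, and 0.1 is the smallest value that 3 libraries against 3 allow. This permutation ignored the pairing of libraries by experiment. In bulk RNA, fewer cells that express a gene and less RNA per cell cannot be told apart.

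**Figure D2:**
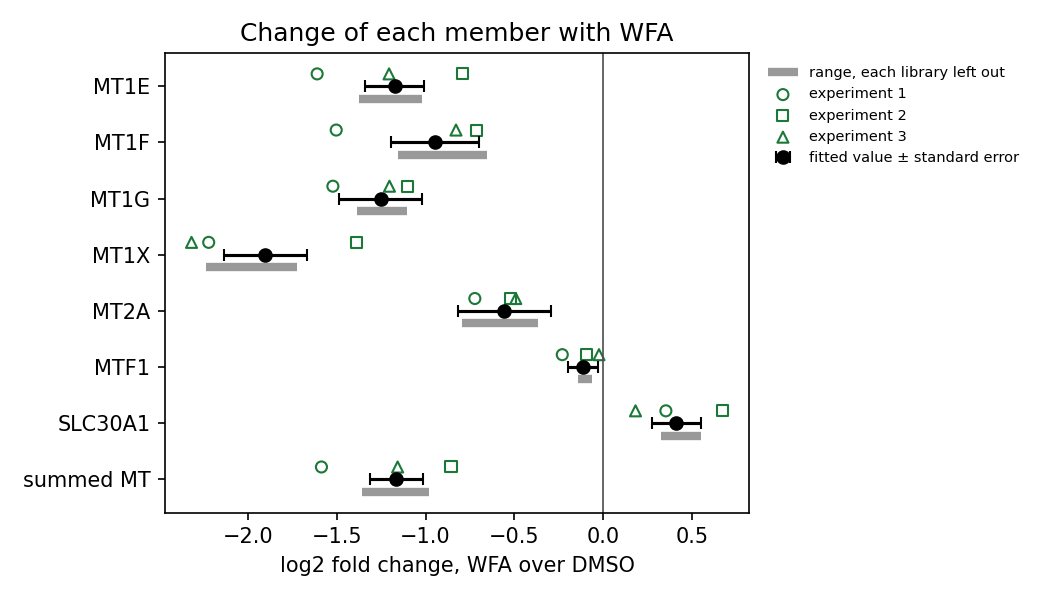
Log2 fold change of WFA over DMSO for each tested member and for the summed metallothionein count, with the fitted value and its standard error (black), the value within each experiment (green) and the range when each library is left out (grey bars). MT1X lies farthest to the left at -1.90, MTF1 lies near 0 at -0.12 and SLC30A1 lies to the right at 0.41.

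Because metallothionein sequences are alike, the isoforms may exchange reads. Windows of 50 bases from the coding transcripts of each gene (GENCODE 29) were searched for in all other annotated transcripts. The share of windows found in another metallothionein gene of the lists was 16.5% for MT1G, 7.63% for MT1X, 7.1% for MT1E, 3.27% for MT1F and 2.22% for MT2A. For MT1H and MT1M, which gave no measurable signal, this share was 15.8% and 9.87%. For MT1X, 43.6% of windows also occurred in some other transcript when all genes were searched, including MT1XP1 on chromosome 1 and AC026461.1, a processed transcript that overlaps MT1X on the same strand. Read length and the handling of multiply mapped reads are not given in the sources used here, so isoform values remain uncertain to this extent.

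Reads exchanged between members cannot move their sum. The 7 metallothionein rows together had 568, 519 and 498 reads in DMSO replicates 1, 2 and 3 and 163, 281 and 200 in the WFA replicates. In CPM this was 40.8 ± 0.784 with DMSO and 18.2 ± 4.67 with WFA (SD, n = 3 each). The DMSO libraries were nearly equal, and the spread among the WFA libraries was wider. WFA replicate 1 had the lowest sum and replicate 2 the highest, as for MT1E and MT1G. The sum fell with a log2 fold change of -1.17 ± 0.15 (SE, edgeR adjusted p = 1.34e-05), and within experiments 1, 2 and 3 the change was -1.59, -0.86 and -1.16.

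The share of each isoform in the family count was compared as a description. MT1X made up 19.1% ± 1.63 of metallothionein reads with DMSO and 11.4% ± 2.995 with WFA (SD, n = 3 each). MT2A went the other way, from 9.69% ± 2.15 to 14.7% ± 0.653 (SD, n = 3 each). MT1E held 39.2% ± 2.81 and 39.1% ± 2.61 (SD, n = 3 each), and MT1G held 10.9% ± 0.408 and 10.4% ± 0.724 (SD, n = 3 each). The share of MT1F was 21.1% ± 3.40 with DMSO and 24.3% ± 6.13 with WFA (SD, n = 3 each), which is within its spread.

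The change of each isoform relative to MT2A was tested as their log2 ratio within a library. For MT1X this ratio was 0.99 ± 0.38 with DMSO and -0.39 ± 0.35 with WFA (SD, n = 3 each), a difference of -1.38 beside a pooled SD of 0.366. The ratio was higher in each DMSO library than in any WFA library, but p was 0.1 in an exact two-sided permutation test, or 0.133 after Benjamini-Hochberg adjustment over 4 ratios. The differences were -0.68 for MT1G and -0.63 for MT1E, also without overlap and with the same exact p-values. MT1F differed from MT2A by -0.44, with overlapping groups (exact permutation p = 0.2). With 3 libraries against 3 this exact test cannot go below 0.1, so it does not settle whether the isoforms changed unequally. The test also ignored the pairing of libraries by experiment.

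**Figure D3:**
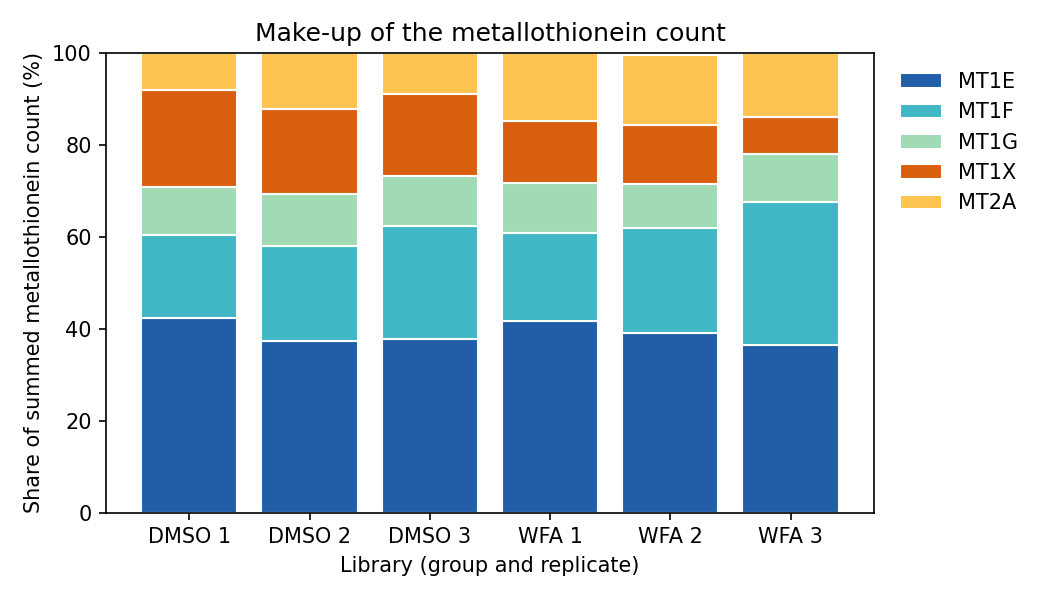
Share of the summed metallothionein count taken by each of the 5 tested isoforms (stacked bars, percent) in the 6 libraries. The MT1X segment takes 17.9% to 21.0% with DMSO and 8% to 13.5% with WFA, and the MT2A segment 8.10% to 12.1% and 14% to 15.3%.

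Between genes, levels were compared only per length, as CPM per kb of the median coding transcript in GENCODE 29. Reads that the alignment missed or placed on similar transcripts are not corrected for, so the order of genes is uncertain to that extent. With DMSO the order was MT1E with 22.7 CPM per kb, MT1X with 15.8, MT1F with 15.6, MT1G with 10.998, MTF1 with 10.3, MT2A with 5.79 and SLC30A1 with 5.50. The libraries of MT1X and MT1F overlapped, as did those of MT2A and SLC30A1, and MT1G and MTF1 were nearly equal. MT1E lay above all the others in each DMSO library. Its level was at percentile 59.0 and that of MT2A at percentile 28.9 among 11526 tested genes with a known length. With WFA, MT1E had 10.0 CPM per kb, MTF1 9.52, MT1F 8.11, SLC30A1 7.30, MT1G 4.60, MT1X 4.17 and MT2A 3.92, and each neighbour in this order overlapped the next, except that SLC30A1 lay above MT1G. MT1X went from percentile 50.2 to percentile 22.9.

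MTF1, the zinc-finger factor that drives metallothionein transcription, did not pass the test. Its level was 82.9, 82.9 and 80.7 CPM in the DMSO libraries and 70.7, 77.7 and 79.3 CPM in the WFA libraries. Each WFA library was below the DMSO range, by little in replicate 3. The log2 fold change was -0.12 ± 0.08 (SE, edgeR adjusted p = 0.274). RNA level says nothing of the binding or the location of the MTF1 protein.

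SLC30A1, a target of MTF1 in other settings, moved opposite to the metallothioneins. It measured 34.9, 27.4 and 27.995 CPM with DMSO and 44.5, 43.7 and 31.7 CPM with WFA. WFA replicates 1 and 2 were above all DMSO libraries, whereas WFA replicate 3 was below DMSO replicate 1, so the groups overlapped. SLC30A1 rose with a log2 fold change of 0.41 ± 0.14 (SE, edgeR adjusted p = 0.0217), and 25.8% of all genes were called higher. Within experiments 1, 2 and 3 the change was 0.35, 0.67 and 0.18. The call was lost with total counts in place of TMM, at 0.32 (edgeR adjusted p = 0.0593). It was also lost without DMSO replicate 2 or 3 or without WFA replicate 1 or 2, with log2 fold changes of 0.33, 0.36, 0.33 and 0.34 (edgeR adjusted p = 0.0856, 0.0788, 0.0957 and 0.0740). The call was kept with the replicate number as a block, at 0.41 (edgeR adjusted p = 0.000190). Without DMSO replicate 1 or WFA replicate 3 it was kept at 0.53 and 0.55 (edgeR adjusted p = 0.0108 and 0.00257).

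Other zinc transporters were taken from fixed lists, also chosen with earlier results of these data known. Their counts are read against the same 50.5% of all tested genes. Of 14 importers of the SLC39A (ZIP) family 10 were tested, and 3 were higher and 2 lower with WFA, with a median log2 fold change of 0.08. SLC39A6 (ZIP6) rose most clearly, with a log2 fold change of 0.66 ± 0.11 (SE, edgeR adjusted p = 0.000158). Its level was 76.7 ± 5.25 CPM with DMSO and 122 ± 20.6 CPM with WFA (SD, n = 3 each). SLC39A1 (ZIP1) and SLC39A10 (ZIP10), plasma membrane importers, had log2 fold changes of 0.33 and 0.29 (edgeR adjusted p = 0.00513 and 0.0240). The call on SLC39A10 was lost without DMSO replicate 2 or 3 or WFA replicate 1 or 2 (edgeR adjusted p = 0.106, 0.0504, 0.0851 and 0.0626), with total counts (edgeR adjusted p = 0.101) and by DESeq2 (adjusted p = 0.0555). SLC39A11 and SLC39A4, the importer of dietary zinc in the gut, fell, with log2 fold changes of -0.33 and -0.47 (edgeR adjusted p = 0.0176 and 0.0286). Both calls were lost without DMSO replicate 3 (edgeR adjusted p = 0.0501 for SLC39A11 and 0.0652 for SLC39A4) and without WFA replicate 3 (0.0597 and 0.0652). That on SLC39A11 was also lost without DMSO replicate 1, and that on SLC39A4 without DMSO replicate 2 or WFA replicate 1 (edgeR adjusted p = 0.0858, 0.0712 and 0.124). SLC39A7, which moves zinc out of the endoplasmic reticulum, was listed at 0 reads in each library and could not be compared.

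Of 10 exporters of the SLC30A (ZnT) family 5 were tested, and 2 were higher and 0 lower, with a median log2 fold change of 0.11. The number lower was also 0 at an unadjusted edgeR p under 0.05 and by DESeq2. With total counts in place of TMM it was 1, as SLC30A9 had -0.22 (edgeR adjusted p = 0.0483), and 1 exporter was higher. Besides SLC30A1, SLC30A6 rose, with a log2 fold change of 0.37 ± 0.10 (SE, edgeR adjusted p = 0.00556). It went from 56.4 ± 4.11 to 72.8 ± 6.80 CPM (SD, n = 3 each). Its partner in loading zinc into the secretory pathway, SLC30A5, had 139 ± 4.46 CPM with DMSO and 150 ± 7.75 CPM with WFA (SD, n = 3 each) and did not pass the test (edgeR adjusted p = 0.273).

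Metallothioneins also bind copper, and the copper genes changed in both directions. All 12 listed genes were tested, with 5 higher and 3 lower, or 8 called against 50.5% of all genes, and a median log2 fold change of 0.26. SOD1, the copper and zinc superoxide dismutase, had 143 ± 9.15 CPM with DMSO and 383 ± 28.7 CPM with WFA (SD, n = 3 each). Its log2 fold change was 1.42 ± 0.09 (SE, edgeR adjusted p = 1.42e-08). SLC31A2, a CTR family protein of endosomes and lysosomes, had a log2 fold change of 1.28 and ATP7A, the copper-exporting ATPase, of 0.83 (edgeR adjusted p = 3.02e-05 and 0.000274). The other two that rose, named after their values were seen, were the copper importer SLC31A1 at 0.70 and CCS, which delivers copper to SOD1, at 0.68 (edgeR adjusted p = 0.00110 and 0.00394). SCO1 and COX11, which act in copper delivery to cytochrome c oxidase in mitochondria, fell, with log2 fold changes of -0.82 and -0.53 (edgeR adjusted p = 9.54e-05 and 0.000850), and SCO2, named after its value was seen, had -1.05 (edgeR adjusted p = 0.00962). The call on SCO2 was lost without WFA replicate 1, at -0.79 (edgeR adjusted p = 0.0562). COX17, a copper chaperone of the same route that was also named after its value was seen, had a log2 fold change of 0.25 and did not pass the test (edgeR adjusted p = 0.0719).

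**Figure D4:**
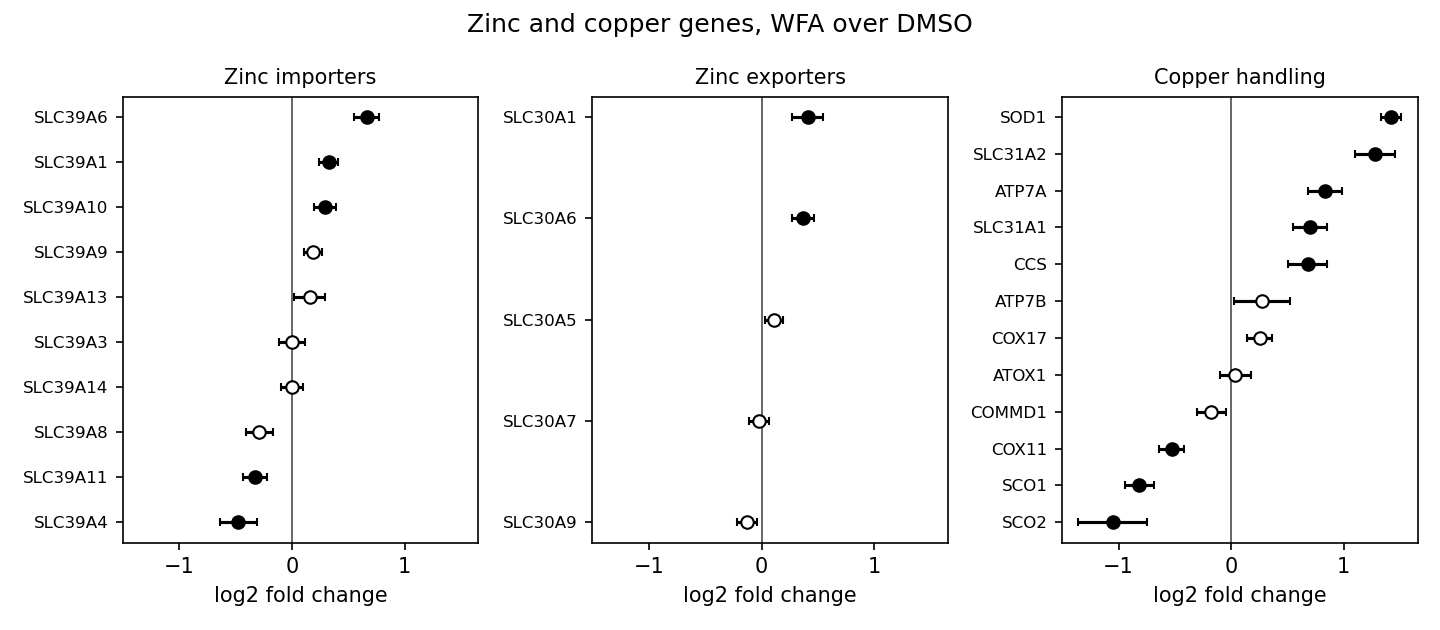
Log2 fold change of WFA over DMSO with its standard error for each tested zinc importer, zinc exporter and copper gene, with filled points for genes past the threshold and open points for the others. Among the exporters SLC30A1 and SLC30A6 are filled at 0.41 and 0.37, and among the copper genes SOD1 lies highest at 1.42 and SCO2 lowest at -1.05.

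Factors known to act at metallothionein promoters were examined at the RNA level. All 10, MTF1 included, were tested, with 2 higher and 1 lower, or 3 called against 50.5% of all genes, and a median log2 fold change of 0.01. The coactivators EP300 and CREBBP rose, with log2 fold changes of 0.45 and 0.49 (edgeR adjusted p = 0.000877 and 0.00117). USF1, which binds E-boxes, fell by 0.29 on the log2 scale (edgeR adjusted p = 0.0211). This call was lost without DMSO replicate 2 and without WFA replicate 3, at -0.22 and -0.25 (edgeR adjusted p = 0.108 and 0.0697). The heat shock factor HSF1, the oxidant-responsive NFE2L2 and the glucocorticoid receptor NR3C1 had log2 fold changes of -0.13, -0.05 and 0.08 and did not pass the test (edgeR adjusted p = 0.323, 0.649 and 0.443). RNA level does not show the activity of these factors. The study itself reported positive enrichment of HSF1 activation gene sets with WFA.

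The genes that flank the cluster on chromosome 16 were compared to place the metallothioneins in their neighbourhood. Of 11 listed neighbours 7 were tested, and all 7 were called, against 50.5% of all genes tested, with 2 higher and 5 lower and a median log2 fold change of -0.46. The nearest tested gene on the MT4 side, BBS2, lies 45 kb from the cluster and fell by 0.39 on the log2 scale (edgeR adjusted p = 0.00401). On the MT1X side NUP93, a scaffold nucleoporin, lies 45.9 kb away and had -0.61 (edgeR adjusted p = 4.23e-05). OGFOD1, a prolyl hydroxylase that acts on a ribosomal protein, fell by 0.70 on the log2 scale (edgeR adjusted p = 5e-06). HERPUD1, a gene of the unfolded protein response, and CES1, a carboxylesterase, rose by 0.68 and 0.64 (edgeR adjusted p = 1.79e-05 and 0.00430). These 2 genes lie farther out, at 247.9 and 732 kb from the cluster, as does NLRC5, which fell, at 305.4 kb. MT1E, MT1F, MT1G and MT1X had lower log2 fold changes than each of the 7 neighbours, of which NLRC5 was lowest at -0.77. MT2A, at -0.56, lay within the range of the neighbours, with NUP93, OGFOD1 and NLRC5 below it. These differences between genes were not tested.

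**Figure D5:**
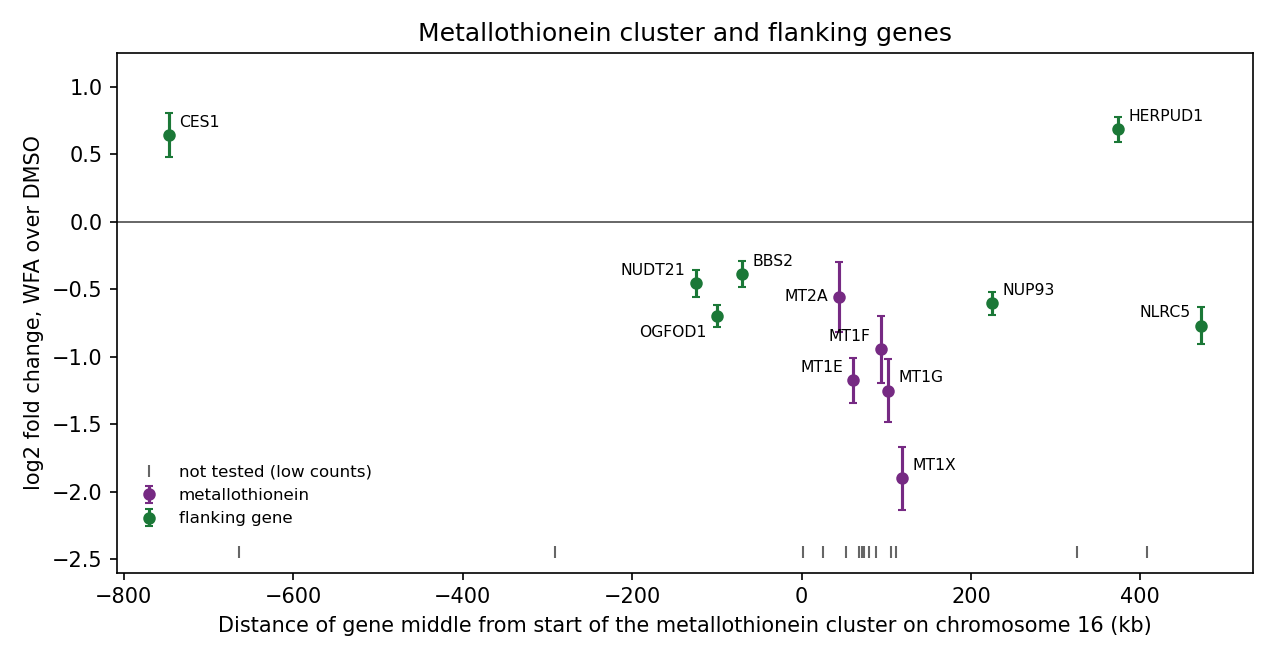
Log2 fold change of WFA over DMSO with its standard error (y axis) against the distance in kb of each gene's middle from the start of the metallothionein cluster on chromosome 16 (x axis). Metallothioneins (purple) reach down to -1.90 for MT1X, flanking genes (green) lie between -0.77 and 0.68, and ticks mark genes with too few counts to test.

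The genes whose levels over the 6 libraries most resembled the summed metallothionein count were SFSWAP, KCNAB2, TMEM104, GRWD1 and THOC6. Their Pearson correlations on log2 CPM were 0.999 for SFSWAP, 0.997 for KCNAB2, 0.997 for TMEM104, 0.997 for GRWD1 and 0.997 for THOC6, as a description over 6 libraries that share the group difference. Of the 12847 genes compared, 1541 had a correlation over 0.9. SFSWAP regulates splicing, KCNAB2 encodes a potassium channel subunit, GRWD1 acts in ribosome assembly and THOC6 belongs to a complex for mRNA export. The log2 fold changes of SFSWAP, KCNAB2, TMEM104, GRWD1 and THOC6 were -0.30, -0.75, -0.48, -1.05 and -0.83, against -1.17 for the sum.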

How the data were processed

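RNA was sequenced from THP1 cells treated for 6 h with DMSO or WFA, with 3 libraries per group. The authors deposited raw counts of reads per gene, which were used here without change. Per the labels the submitters used bcl2fastq 2.19, Trimmomatic, Bowtie2, Picard, featureCounts and DESeq2 with build hg38, while the annotation, strand and multiple mapping settings are not given in the sources used here. The table also holds 6 scaled columns and the authors' own fold changes, p-values and dispersion estimates, none of which were used. Counts were fitted with edgeR 4.0.16 in R 4.3.3, after TMM scaling and filterByExpr with a minimum count of 10, by the quasi-likelihood test on the group alone, with Benjamini-Hochberg adjustment over all 12854 genes tested. Sums of the 7 metallothionein rows were fitted in the same way with those rows replaced. Log ratios had 0.5 added to each count, and log2 CPM a prior count of 2. Alternatives were other scalings and filters, a robust fit, DESeq2 1.42.0, a replicate block, leaving out each library, all metallothionein rows in the sum and a pseudocount of 1 in the ratios. The fits were tested on simulated data.

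Replicate numbers pair the libraries. In the sample descriptions same-numbered DMSO and WFA libraries carry the same code, the study names 3 independent experiments, and their deviations from the group means correlated at 0.22, 0.33 and 0.25. Libraries of a group differed by more than sampling noise, as the chi-square was at least 5.92 per gene, and each was kept. Floors of 3 counts cover counting error only, whereas SE and SD values also include variation between libraries. Levels per length used GENCODE 29, found for 89.7% of tested genes. All 9 members are named, with from each list up to 4 genes with the smallest p-values past the threshold and up to 2 in the opposite direction, and the 5 genes most correlated with the metallothionein sum. A gene of the list of neighbours is not reported here. Members and lists were chosen with earlier results of these data known.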

Additional observations from a re-analysis of the deposited data

How the results depend on the processing

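MT1E, MT1F, MT1G and MT1X stayed lower and past the threshold in all 14 alternatives (edgeR or DESeq2), with log2 fold changes from -1.38 to -1.02, -1.15 to -0.65, -1.38 to -1.10 and -2.23 to -1.72. The summed count stayed between -1.36 and -0.98 in 15. The number of members called was 4 to 6. Over all genes 5758 to 7585 were called, against 6489 in the main fit. With the replicate block 6 members were called, 1 higher and 5 lower, MT2A being added, and the summed count had -1.19. The block also gave the most calls over all genes, at 7585. No other call on a member changed with the block. The difference of the MT1X to MT2A ratio stayed between -1.57 and -1.18. Called copper genes numbered 7 to 8, promoter factors 2 to 4, glucocorticoid-induced genes 6 to 8 and neighbours 7. Without DMSO replicate 2 both promoter factors called were higher and USF1 was lost, and without WFA replicate 3 STAT3 took the place of USF1. STAT3 was also called lower with the block and with total counts (edgeR adjusted p = 0.0159 and 0.0152) and by DESeq2 (adjusted p = 0.0478). Leaving out each library in turn gave 2 to 4 called zinc importers, against 5 with all libraries, and 1 to 2 called zinc exporters, against 2. Over all 14 alternatives called importers numbered 2 to 7, with 7 under the replicate block. SLC39A8, not called in the main fit, was lower with the block at -0.30 (edgeR adjusted p = 0.000691) and by DESeq2 at -0.31 (adjusted p = 0.0409). It was also called lower with DESeq2 size factors, without the low-count filter, with total counts and without WFA replicate 1 (edgeR adjusted p = 0.0430, 0.0091, 0.0133 and 0.00469). By DESeq2 and with total counts 2 importers were higher and 3 lower, against 3 and 2 in the main fit. Importers called numbered 3 without DMSO replicate 2, 2 without DMSO replicate 3 and 3 without WFA replicate 3. Exporters called numbered 1 without DMSO replicate 2 or 3 or WFA replicate 1 or 2, where SLC30A1 was lost. The cause was not tested. A minimum count of 50 left MT2A untested. Metallothionein levels rest on 16 to 241 reads per library and gene, which limits their precision.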

Other observations

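Metallothioneins are classical glucocorticoid-induced genes, and other genes of that kind moved in both directions. Of 10 listed genes 9 were tested, with 4 higher and 3 lower against 50.5% of all genes called, and a median log2 fold change of 0.02. TSC22D3, which encodes the leucine zipper protein GILZ, had 13.4 ± 0.731 CPM with DMSO and 57.9 ± 11.3 CPM with WFA (SD, n = 3 each), and its log2 change was 2.10 (edgeR adjusted p = 1.79e-08). ERRFI1, an inhibitor of EGF receptor signaling, SGK1, a serum- and glucocorticoid-regulated kinase, and DUSP1, a MAP kinase phosphatase, rose by 1.51, 1.14 and 1.93 on the log2 scale (edgeR adjusted p = 9.77e-06, 2.55e-05 and 0.000245). FKBP5, a co-chaperone of the glucocorticoid receptor, and CEBPD fell, with log2 fold changes of -0.51 and -0.60 (edgeR adjusted p = 0.00156 and 0.00297).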
